A study of Mus musculus with 10 samples.

Results

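This account covers the response of cultured bone marrow derived macrophages (BMDM) of the mouse to lipopolysaccharide (LPS), measured by RNA sequencing. Its members are the 4 BMDM libraries of a series of 10, chosen by their source labels: 2 untreated and 2 treated with LPS. All 13809 genes of the deposited expression table were used, and 13755 of them passed the filter on low values and were tested. The cells came from femur and tibia marrow of C57BL/6 mice aged 12 weeks, with no genetic alteration named. Marrow cells that ran through an unlabelled magnetic column were grown with 20% supernatant of L929 cells, a fibroblast line that secretes macrophage colony-stimulating factor. Growth lasted 6 days by the protocol and 7 days by the sample titles, and the submitters describe these cells as CD163-negative. Treated cells received 1 µg/ml LPS for 4 h, and the controls were left untreated. The other 6 libraries, 3 untreated and 3 LPS-treated, come from resident marrow macrophages that the column retained, and they enter the shared estimate of the spread and a comparison near the end. The labels do not say whether replicates are separate mice or cultures or whether marrow was pooled, so p-values measure only the spread between these libraries, which may be technical.

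LPS is a component of the outer membrane of Gram-negative bacteria. It is carried by CD14 to the receptor complex of TLR4 and MD-2, and the adaptors MyD88 and TRIF relay the signal to NF-kB, MAP kinases and the transcription factor IRF3. NF-kB and MAP kinases drive cytokine genes and their own inhibitors, while IRF3 turns on interferon beta, whose receptor then activates STAT2 and IRF9 in the same and neighbouring cells. Activated macrophages are also known to shift toward glycolysis and to lower a large set of resting-state genes, among them lineage factors, surface receptors and cell cycle genes.

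The BMDM libraries held 27.1 and 28.4 M (untreated) and 37.7 and 28.5 M (LPS-treated) reads each, counted over the genes of the table, and replicates resembled each other closely. Pearson correlations of log2 values across the tested genes were 0.9953 between the untreated libraries and 0.9949 between the LPS-treated libraries, against 0.896 to 0.898 between treatments. For genes above 100 reads in both libraries, the log2 ratio between replicates had an SD of 0.129 in untreated and 0.119 in LPS-treated cells. The chi-square of a gene between replicates had a median of 0.842 and 0.920, both above the median expected from counting noise alone. Its mean per degree of freedom was 106 and 4.42, or 10.1 and 4.42 without the ribosomal RNA precursor Rn45s. Rn45s made up 4.70% of untreated replicate 2 and at most 0.232% of the other 3 libraries, and the main counts were also computed with totals that leave it out. The label of the cells was checked against their markers. All 34 macrophage identity genes in the table had a mean of at least 10 in a BMDM group, and together they took 5.13% and 4.76% of untreated and 3.34% and 3.33% of LPS-treated values. Markers of other marrow cells were scarce. Neutrophil markers took 0.00888% and 0.00919% of untreated and 0.0149% and 0.0148% of LPS-treated values (2 of 18 rose and 3 fell, or 1 and 5 with equal totals (median -0.66)), with Ly6g at the floor of the table in all 4 libraries. Erythroid markers stayed between 0.000448% and 0.000625%. Among 15 dendritic cell markers 10 rose and 1 fell, or 7 and 2 with equal totals (median 0.74), and their sum went from 0.0209% and 0.0195% to 0.0625% and 0.0601%, while Flt3 (-0.85 ± 0.42) and Siglech (-0.23 ± 0.40) were not called. The mast cell, basophil and eosinophil sum went from 0.00388% and 0.00441% to 0.0145% and 0.0154%, of which the histidine decarboxylase gene Hdc (8.2 and 18.3 untreated, 4656 and 4833 after LPS), also known from activated macrophages, made up most. These sums move with treatment, and their part in the results was not tested. In bulk RNA, fewer cells of a type and less RNA per cell cannot be told apart.

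Values below are normalized reads of each library, with untreated replicates 1 and 2 followed by LPS replicates 1 and 2. Changes are LPS minus untreated on the log2(value + 1) scale, with their standard error (log2 ± SE). Rose and fell mean an adjusted p under 0.05 with limma and Benjamini-Hochberg adjustment over all 13755 genes. The error is pooled over all 4 groups, and the resident replicates varied more than those of BMDM (SD of the log2 ratio 0.227 to 0.418). With the BMDM libraries alone, 4703 of the genes then passing the filter were called higher and 5206 lower. With the pooled error many modest changes still pass: 7953 genes (57.8%) were called, 3896 higher (28.3%) and 4057 lower (29.5%). There was no overlap between the 2 BMDM groups for 84.4% of tested genes. At a size of at least 2-fold, 2187 genes rose (15.9%) and 2122 fell (15.4%). The counts of the rises and falls were thus alike, but their sizes were not. At 16-fold or more there were 367 rises and 54 falls, and at 64-fold or more 138 rises and 3 falls. The median called rise was 2.26-fold and the 90th percentile 14.8-fold, against 2.07-fold and 5.43-fold for falls. Rising genes also took a larger share of the libraries. Genes that rose held 28.7% and 27.3% of all values in untreated and 60.4% and 60.5% in LPS-treated libraries, and those that rose at least 16-fold went from 0.499% and 0.489% to 17.9% and 18%. Genes that fell went from 20.5% and 19.3% to 6.68% and 6.67%.

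**Figure D1:**
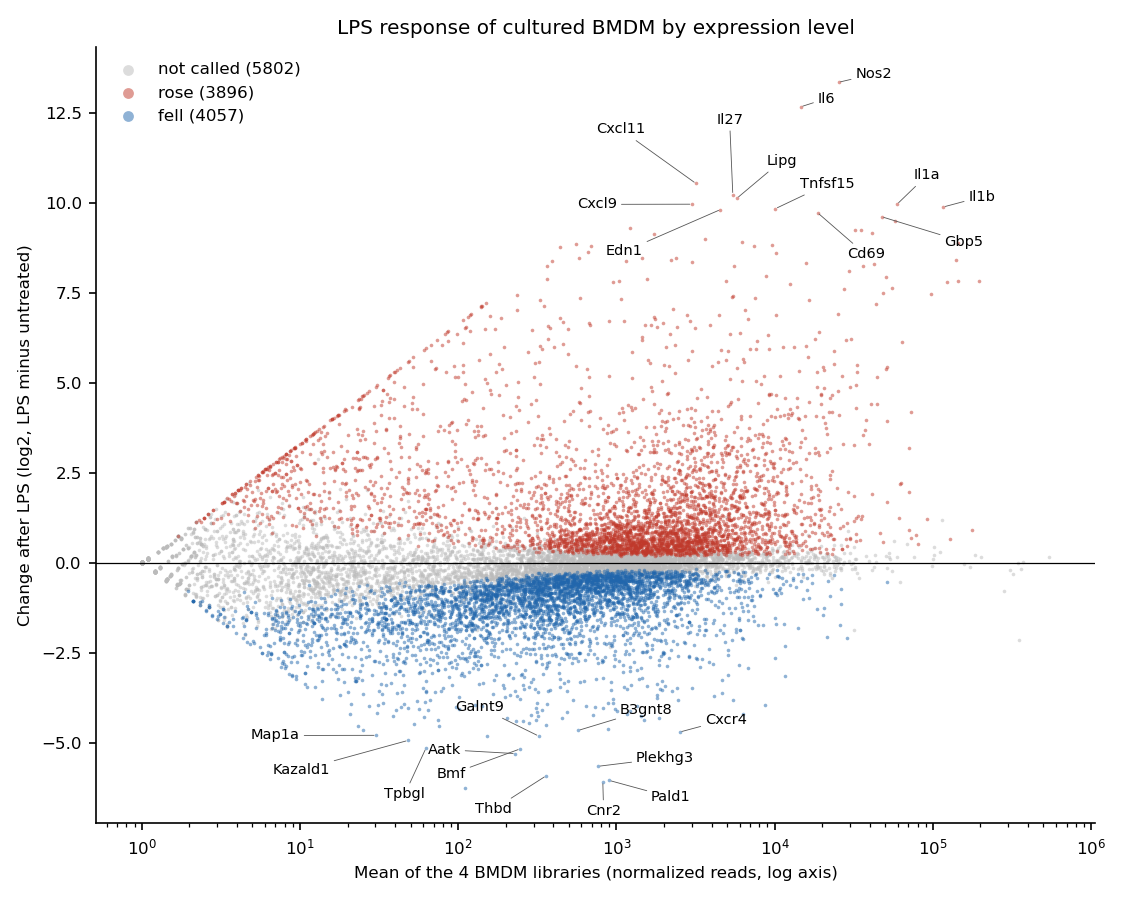
Change after LPS (log2, LPS minus untreated) of each tested gene against its mean normalized reads over the 4 BMDM libraries (log axis); red points rose, blue points fell and grey points were not called. The 12 largest rises and 12 largest falls of genes with a name are labelled, and rises reach 13.35 where falls end at -6.26 (the unlabelled C130050O18Rik, known by a clone name only).

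Because so much of the library moved, the zero line depends on how libraries were brought to a common scale. The values as deposited put the median change of all tested genes at -0.04. Scaling all libraries to equal totals put it at -0.64, and quantile normalization at -0.20. With equal totals 2170 genes were called higher (15.8%) and 7833 lower (56.9%), so 21.7% of calls were rises in place of 49.0%. Changes here are relative to the deposited scale, and a small change of a group near the median can have either sign. Of the genes called on the deposited values, 2054 rises (14.9%) and 3227 falls (23.5%) were called in the same direction under all 4 other scalings tried. The falls at least 2-fold in size started at a median level of 257 normalized reads and ended at 77.2, whereas the 2-fold rises started at 365 and ended at 2076. In both untreated libraries 148 of those rising genes were at the floor, and 18 of the falling genes were at the floor in both LPS-treated libraries.

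The promoters of the largest changes are shown beside the share of motif matches among rises and falls. Each is the 250 bases before the transcription start in RefSeq on build GRCm38.p6, written 5′ to 3′ on the strand of the gene. They belong to the 3 largest rises and 3 largest falls that have an entry, passing over genes on a chromosome that the rule set aside. Capitals mark matches on either strand to any of 5 motifs: GAAANNGAAA (the interferon-stimulated response element), GGGANNTTCC (kappa B), TATAAA (a core promoter element), TTTCCCGC (E2F) and TGACGTCA (cyclic AMP response element), none of which contains another. 
Il6, chr5:30012864-30013113, plus strand: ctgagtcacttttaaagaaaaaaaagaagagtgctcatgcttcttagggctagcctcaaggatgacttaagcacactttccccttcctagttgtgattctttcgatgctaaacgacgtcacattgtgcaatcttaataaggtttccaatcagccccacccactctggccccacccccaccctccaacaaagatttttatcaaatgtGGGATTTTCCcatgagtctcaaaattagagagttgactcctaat
Cxcl9, chr5:92328080-92328329, minus strand: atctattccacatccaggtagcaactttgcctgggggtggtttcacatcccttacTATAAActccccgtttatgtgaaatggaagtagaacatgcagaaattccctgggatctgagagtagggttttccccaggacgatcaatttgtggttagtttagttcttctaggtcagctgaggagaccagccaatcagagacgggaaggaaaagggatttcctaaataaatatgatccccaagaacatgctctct
Il1a, chr2:129309973-129310222, minus strand: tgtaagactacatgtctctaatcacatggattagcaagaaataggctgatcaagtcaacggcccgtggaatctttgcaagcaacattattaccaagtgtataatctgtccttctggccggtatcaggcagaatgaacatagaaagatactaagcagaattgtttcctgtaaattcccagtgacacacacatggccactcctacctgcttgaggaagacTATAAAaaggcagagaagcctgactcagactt
Cnr2, chr4:135894939-135895188, plus strand: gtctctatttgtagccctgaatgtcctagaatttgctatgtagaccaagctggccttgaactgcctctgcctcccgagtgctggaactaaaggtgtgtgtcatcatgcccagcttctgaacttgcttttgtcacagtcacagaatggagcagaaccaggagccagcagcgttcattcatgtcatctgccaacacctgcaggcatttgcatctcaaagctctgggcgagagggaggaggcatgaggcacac
Pald1, chr10:61383340-61383589, minus strand: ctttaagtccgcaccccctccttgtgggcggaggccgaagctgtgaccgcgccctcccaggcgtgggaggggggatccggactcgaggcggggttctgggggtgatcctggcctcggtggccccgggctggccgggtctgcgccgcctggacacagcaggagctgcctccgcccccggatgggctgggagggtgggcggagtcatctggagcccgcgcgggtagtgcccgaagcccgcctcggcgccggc
Aatk, chr11:120047153-120047402, minus strand: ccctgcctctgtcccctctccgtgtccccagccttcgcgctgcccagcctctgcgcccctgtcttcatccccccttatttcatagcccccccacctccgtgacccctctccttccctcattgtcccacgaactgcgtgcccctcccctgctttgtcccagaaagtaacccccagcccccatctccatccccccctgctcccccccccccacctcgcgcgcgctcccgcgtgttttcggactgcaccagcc
Il6 holds a kappa B match that begins 44 bases before the start, Cxcl9 a TATAAA match at 195 bases and Il1a a TATAAA match at 32 bases, and the other 3 windows hold no match. For Cnr2, which has 2 entries, and Aatk, which has 4, the first entry is shown.

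Over all 10473 tested genes with an entry, 2.82% of windows hold GAAANNGAAA, 1.18% GGGANNTTCC and 6.63% TATAAA. Among the 268 of these genes that rose at least 16-fold the shares were 15.3%, 4.85% and 16.8%. Among the 1628 that fell at least 2-fold they were 1.54%, 0.983% and 6.51%. Windows of the strongest rises also held fewer CG dinucleotides, with a median of 6 against 15 over all genes and 15 for genes that fell at least 2-fold. TTTCCCGC was found in 1.12% of the 16-fold rises, 2.09% of the 2-fold falls and 1.74% of all windows, and TGACGTCA in 1.49%, 1.90% and 2.70%. A match is a description of the letters and not of binding.

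The largest rises were those of Nos2, which encodes inducible nitric oxide synthase, and the cytokine gene Il6. Nos2 stood at 7.29 and 1.83 in untreated and 52032 and 49298 in LPS-treated libraries, and Il6 at 9.12 and 1 in untreated and 30712 and 27852 in LPS-treated libraries. Neither overlapped between groups, and at such low starting levels the size on the log2(value + 1) scale (13.35 ± 0.58 and 12.67 ± 0.60) rests on a handful of reads. The 12 largest rises also held the interferon-induced chemokine genes Cxcl11 (1.82 and 5.48 to 6236 and 6469) and Cxcl9 (5.47 and 4.57 to 5854 and 6129) and the cytokine subunit gene Il27 (10.0 and 6.4 to 11078 and 10670). The endothelial lipase gene Lipg went from 11.9 and 7.31 to 11601 and 11500, and Tnfsf15, a TNF family cytokine gene, from 25.5 and 17.4 to 20151 and 20293. Of the interleukin 1 genes, Il1a went from 93.9 and 148 to 116434 and 120937 and Il1b from 249 and 240.4 to 237366 and 227193. Edn1, the endothelin 1 precursor gene, rose by 9.81 ± 0.44, Cd69, an early activation marker, by 9.73 ± 0.15 and Gbp5, an interferon-inducible GTPase gene, by 9.61 ± 0.19. In all 12 both LPS-treated libraries lay above both untreated libraries, which the choice of these genes required.

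Of the components that sense LPS, 19 of 31 genes rose (61.3%) and 5 fell (16.1%), with a median change of 0.54. Cd14, the co-receptor gene, rose from 24548 and 23495 to 77907 and 78181 (1.70 ± 0.37), while the receptor gene Tlr4 itself was not called (2192 and 2389 untreated, 2102 and 2063 with LPS). The adaptor gene Myd88 rose by 2.72 ± 0.09, and so did Irak3, which encodes an inhibitory kinase of the pathway (2.68 ± 0.09). The 2 Pellino ubiquitin ligase genes of the list moved apart, Peli1 rising by 4.12 ± 0.13 and Peli2 falling by 2.55 ± 0.27. Tab1, which encodes a partner of the kinase TAK1, fell by 0.88 ± 0.11. With equal totals 13 of them were called higher and 11 lower (median -0.07). Another scaling ended the call of Cd14.

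Other sensors of microbes rose more often than they fell: 21 of 33 genes rose (63.6%) and 7 fell (21.2%), with a median change of 1.38. Tlr2, the receptor gene for bacterial lipoproteins, rose from 3999 and 4005 to 33616 and 33924, and the inflammasome gene Nlrp3 from 2024 and 1949 to 21814 and 21498. Ifih1, which encodes the double-stranded RNA sensor MDA5, rose by 6.23 ± 0.15 and Zbp1, a nucleic acid sensor gene, by 5.93 ± 0.09. Tlr13, the receptor gene for bacterial ribosomal RNA, went the other way, from 9687 and 10528 to 2402 and 2373 (-2.08 ± 0.24), and so did Nlrp1b, from 563 and 515 to 62.7 and 51.5 (-3.22 ± 0.29).

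Genes of NF-kB and its inhibitors rose nearly throughout. Of NF-kB subunit and inhibitor genes, 23 of 25 rose (92%) and 1 fell (4%), with a median change of 3.01. Nfkbia, the gene of the inhibitor I kappa B alpha, rose by 3.75 ± 0.16, Tnfaip3, the gene of the deubiquitinase A20, by 4.89 ± 0.19, and Nfkbiz by 5.18 ± 0.10. Traf1, which encodes a TNF receptor adaptor, rose by 5.66 ± 0.16. The faller was Map3k14, the gene of the NF-kB inducing kinase of the noncanonical pathway, which went from 993 and 968 to 181 and 163 (-2.51 ± 0.19). In the MAP kinase list 19 of 40 genes rose (47.5%) and 12 fell (30%), with a median change of 0.18. The kinase gene Map3k8 (TPL2) rose by 3.21 ± 0.12 and the phosphatase genes Dusp2 and Dusp14 by 4.23 ± 0.14 and 5.04 ± 0.52. Dusp3 and Dusp6 fell by 1.99 ± 0.09 and 1.99 ± 0.17. Dusp1 had a change of 0.60 ± 0.17, which was -0.01 with equal library totals. With equal totals 13 of them were called higher and 18 lower (median -0.43). Leaving out 1 library ended the call of Dusp1 (without untreated 1 or LPS 1, 0.55 to 0.59). Under another scaling the sign changed for Dusp1 (-0.24 with quantiles).

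Immediate-early transcription factor genes were split at this time point: 14 of 27 genes rose (51.9%) and 9 fell (33.3%), with a median change of 0.26. Fos, a subunit gene of AP-1, fell from 18306 and 20440 to 3634 and 4140 (-2.32 ± 0.11), and the orphan receptor gene Nr4a1 from 1287 and 1312 to 192 and 226 (-2.63 ± 0.11). Atf3 rose by 1.25 ± 0.11, Egr1 by 0.78 ± 0.29, and the AP-1-related genes Batf and Batf2 by 4.21 ± 0.18 and 6.04 ± 0.21. With equal totals 11 of them were called higher and 13 lower (median -0.35). Regulators of mRNA decay moved in both directions. Zfp36, the gene of tristetraprolin, which destabilizes cytokine mRNAs, rose from 10661 and 12262 to 33930 and 33202, while its relatives Zfp36l1 (1449 and 1393 to 201 and 225) and Zfp36l2 (17020 and 17524 to 2714 and 2839) fell by 2.74 ± 0.17 and 2.64 ± 0.28. The Regnase genes Zc3h12a and Zc3h12c rose by 2.98 ± 0.18 and 3.30 ± 0.14, and Arid5a, whose product stabilizes Il6 mRNA, by 4.72 ± 0.09. In that list 16 of 29 genes rose (55.2%) and 6 fell (20.7%), with a median change of 0.57. With equal totals 10 of them were called higher and 13 lower (median -0.04). The call of Egr1 (without any 1 of the 4, 0.70 to 0.86) was lost with 1 library left out. Other scalings ended the call of Egr1.

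Most cytokine genes rose. Of interleukin 1, 6 and 12 family and TNF family genes, 26 of 32 rose (81.2%) and 3 fell (9.38%), with a median change of 5.37. Tnf rose from 1651 and 1650 to 66514 and 63529 (5.30 ± 0.15). The fallers were Il16 (168 and 145 to 40.1 and 40.6), Tnfsf12, which encodes TWEAK (3029 and 3277 to 1256 and 1257), and Tnfsf13, named after its values were seen (-0.67 ± 0.24). Among chemokine genes 20 of 27 genes rose (74.1%) and 1 fell (3.7%), with a median change of 4.90. Ccl5 went from 125 and 162 to 84775 and 79189 and Cxcl10 from 648 and 577 to 289212 and 284869, while Ccl24 rose from 1.82 and 2.74 to 64.8 and 86.7. Cxcl14 was the chemokine gene that fell, from 1756 and 1795 to 133 and 123 (-3.78 ± 0.34). With 1 library left out, the call of Tnfsf13 (without untreated 1 or untreated 2 or LPS 1, -0.73 to -0.41) was lost. A different scaling ended the call of Tnfsf13.

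Receptors for these ligands were divided. Of cytokine receptor and decoy genes, 24 of 49 rose (49%) and 12 fell (24.5%), with a median change of 0.37. Il15ra rose from 69.3 and 63.1 to 6171 and 6244, Il10ra by 1.55 ± 0.09 and Tnfrsf1b, the gene of TNF receptor 2, by 2.18 ± 0.21. Both untreated libraries had Osmr, the oncostatin M receptor gene, at the floor. After LPS it stood at 191 and 138, at least 60.2-fold higher against a floor of 3 reads per library. Tnfrsf21, the gene of death receptor 6, fell by 2.26 ± 0.10, and Tnfrsf22, the gene of a TRAIL decoy receptor, by 2.44 ± 0.22. With equal totals 20 of them were called higher and 21 lower (median -0.23). Chemoattractant receptors changed strongly in both directions: 8 of 23 genes rose and 8 fell (median 0.36). The formyl peptide receptor genes Fpr1 (21 and 12.8 to 1007 and 927) and Fpr2 (8.2 and 17.4 to 3387 and 2789) rose. Cx3cr1, the fractalkine receptor gene, fell from 1824 and 1860 to 109 and 111 (-4.05 ± 0.22). Cxcr4, the CXCL12 receptor gene, fell from 4917 and 4776 to 186 and 184 (-4.70 ± 0.15), S1pr1, a sphingosine 1-phosphate receptor gene, from 2872 and 2810 to 132 and 142 (-4.37 ± 0.47), and Ccr2, the monocyte CCL2 receptor gene, from 674 and 766 to 199 and 200.5 (-1.84 ± 0.29). With equal totals 5 of them were called higher and 10 lower (median -0.26).

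Growth and angiogenic factor genes showed no common direction, since 13 of 30 genes rose (43.3%) and 8 fell (26.7%), with a median change of 0.11. Csf3, the G-CSF gene, rose from 1.82 and 4.57 to 40.1 and 51.5 and Inhba, the activin A subunit gene, from 7.29 and 8.23 to 836 and 975. Vegfa fell from 6044 and 5969 to 960.4 and 936 (-2.66 ± 0.21). Angptl2 fell from 3486 and 3567 to 190.2 and 163 (-4.32 ± 0.55) and Angptl4 from 304 and 312 to 17.5 and 32.5 (-3.63 ± 0.39), both of which encode angiopoietin-like proteins. Igf1 was not called (0.02 ± 0.12). With equal totals 11 of them were called higher and 12 lower (median -0.30).

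Genes of the interferon program rose nearly throughout. Ifnb1, the interferon beta gene, had no value above the floor without LPS and stood at 246 and 318 with it. Of interferon-stimulated antiviral effector genes, 50 of 50 rose (100%) and none fell, with a median change of 4.02, and all were called higher under every scaling. Examples are Isg15, a ubiquitin-like protein gene (396 and 483 to 38521 and 36805), Rsad2, the viperin gene (1696 and 1712 to 376060 and 399492), and Cmpk2, its genomic neighbour (1248 and 1269 to 287655 and 287117). All 19 interferon-inducible GTPase genes rose (median 5.91, and 5.90 when those starting from the floor are held at their lower bound), among them Gbp2 (7.63 ± 0.21), Gbp4 (9.00 ± 0.25) and Irgm1 (4.42 ± 0.13). Of the Schlafen family 7 of 8 rose and none fell. In the list of interferon induction, its receptor and STAT-IRF factors, 28 of 32 genes rose and 3 fell (median 1.86). Irf7 rose by 5.45 ± 0.13, and the feedback inhibitor genes Socs1 and Socs3 by 7.40 ± 0.11 and 8.10 ± 0.26. The fallers were Irf3, the factor that acts ahead of interferon beta (1278 and 1217 to 817 and 909), Socs5 (-0.73 ± 0.10) and Stat6, the interleukin 4 signalling factor gene, named after its values were seen (-0.47 ± 0.08). PARP genes divided, with 8 of 12 rising and 4 falling (median 2.43).

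Antigen presentation and costimulation genes rose in 34 of 47 cases (72.3%) and fell in 4, with a median of 1.53. Cd40 rose from 244 and 230.3 to 72539 and 72570, Cd86 by 2.64 ± 0.17, the checkpoint ligand gene Cd274 (PD-L1) by 4.79 ± 0.23 and the MHC class II transactivator gene Ciita by 1.65 ± 0.22. H2-Aa, an MHC class II chain gene, was not called (14813 and 15511 untreated, 20064 and 20589 with LPS). The checkpoint gene Vsir (VISTA) fell from 8581 and 9062 to 1998 and 1986 (-2.15 ± 0.10) and Cd276 (B7-H3) by 1.00 ± 0.29. Of proteasome and immunoproteasome genes, 27 of 39 rose (69.2%) and none fell, with a median change of 0.52. The immunoproteasome subunit genes Psmb8, Psmb9 and Psmb10 rose by 2.25 ± 0.12, 2.93 ± 0.10 and 2.92 ± 0.12, while Psmb5, the constitutive counterpart of Psmb8, was not called (0.09 ± 0.12). With equal totals 12 of them were called higher and 16 lower (median -0.09). Without 1 library there was no call for Cd276 (without untreated 2 or LPS 1 or LPS 2, -1.01 to -0.89). Another scaling ended the call of Cd276.

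Several effector enzyme and secreted defence protein genes rose steeply. Of nitric oxide, arginine, itaconate, tryptophan and pterin enzyme genes, 14 of 22 rose (63.6%) and 4 fell (18.2%), with a median change of 1.20, or 12 and 8 with equal totals (median 0.59). Irg1, the itaconate-producing enzyme gene (Acod1), went from 789 and 837 to 277608 and 279412, whereas Arg1, the arginase 1 gene, stayed low and fell from 31.9 and 32 to 17.5 and 24.4 (-0.61 ± 0.21). Srm, the spermidine synthase gene, fell by 1.26 ± 0.11 and Spr, a tetrahydrobiopterin enzyme gene, by 0.78 ± 0.12. The prostaglandin synthase genes Ptgs2 (172 and 145 to 113877 and 115213) and Ptges (142 and 155 to 9029 and 8890) rose, while the leukotriene enzyme gene Alox5 fell from 53.8 and 49.4 to 19.5 and 35.2 and the prostaglandin receptor gene Ptger1 by 1.06 ± 0.14, in a list where 8 of 28 genes rose and 9 fell (median 0.00). The shares of this list were close to those of all tested genes (28.3% rose and 29.5% fell). With equal totals 4 of the listed genes were called higher and 13 lower (median -0.47). Complement genes were mostly not called: 8 of 24 genes rose and 2 fell (median 0.01). C3 rose by 4.16 ± 0.11 and Cfb by 8.83 ± 0.22, C1qa was not called (-0.28 ± 0.24), and the fallers were the 2 C5a receptor genes C5ar1 (-0.84 ± 0.14) and C5ar2 (-2.40 ± 0.34). With equal totals 7 of them were called higher and 9 lower (median -0.43). Antimicrobial and acute phase genes rose in 11 of 29 cases and fell in 2 (median 0.29), and the risers included Saa3 (115 and 115 to 77798 and 63437), Ptx3 (1 and 6.4 to 2371 and 2482) and Lcn2 (29.2 and 43 to 1369 and 1237). The metal transporter gene Slc11a1 was among the fallers (-0.43 ± 0.13). With equal totals 8 of them were called higher and 9 lower (median -0.32). Leaving out 1 library ended the calls of Arg1 (without untreated 1 or untreated 2 or LPS 1, -0.61 to -0.38), Alox5 (without untreated 1 or untreated 2 or LPS 1, -1.01 to -0.54) and Slc11a1 (without any 1 of the 4, -0.47 to -0.38). Under another scaling the calls of Arg1 and Alox5 were lost.

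Coagulation genes changed in both directions. Thbd, the gene of thrombomodulin, the endothelial and myeloid receptor that turns thrombin into an anticoagulant, fell from 628 and 787 to 9.25 and 12.2. F3, the tissue factor gene, rose from 58.3 and 48.4 to 966 and 948 (4.14 ± 0.31). Serpinb2, a plasminogen activator inhibitor gene, rose from 13.7 and 4.57 to 2157 and 1964. Plat, the tissue plasminogen activator gene, rose too (6.22 ± 0.41). Of the list 11 of 24 genes rose and 4 fell (median 0.65), with equal totals giving 7 and 5 (median 0.04).

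In each of the 12 largest falls of genes with a name the highest LPS-treated library was below the lowest untreated library, again as their choice required. Their levels after LPS ran from the floor of the table or near it (Map1a) to 42.2 and 43.3 (B3gnt8). Cxcr4, given above and also among the 12, ended higher. Cnr2, the gene of the cannabinoid receptor CB2, went from 1648 and 1586 to 25.7 and 20.3 (-6.08 ± 0.33). Pald1, which encodes a phosphatase domain protein, went from 1778 and 1771 to 24.7 and 27.1 (-6.05 ± 0.17), and Plekhg3, the gene of a guanine nucleotide exchange factor, from 1518 and 1493 to 24.7 and 33.9 (-5.65 ± 0.19). The kinase gene Aatk fell from 488 and 409 to 11.3 and 9.48. Bmf, which encodes a proapoptotic BH3-only protein, fell from 472 and 485 to 9.25 and 16.3 (-5.17 ± 0.32). The glycosyltransferase genes Galnt9 (596 and 651 to 23.6 and 19) and B3gnt8 (1086 and 1121 to 42.2 and 43.3) fell by 4.81 ± 0.34 and 4.66 ± 0.24. Tpbgl (119 and 125 to 4.11 and 1.35), Kazald1 (89.3 and 98.7 to 3.08 and 1.35) and the microtubule protein gene Map1a (62.9 and 55.8 to 1 and 1.35) started lower, so that their folds rest on few reads after LPS.

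**Figure D2:**
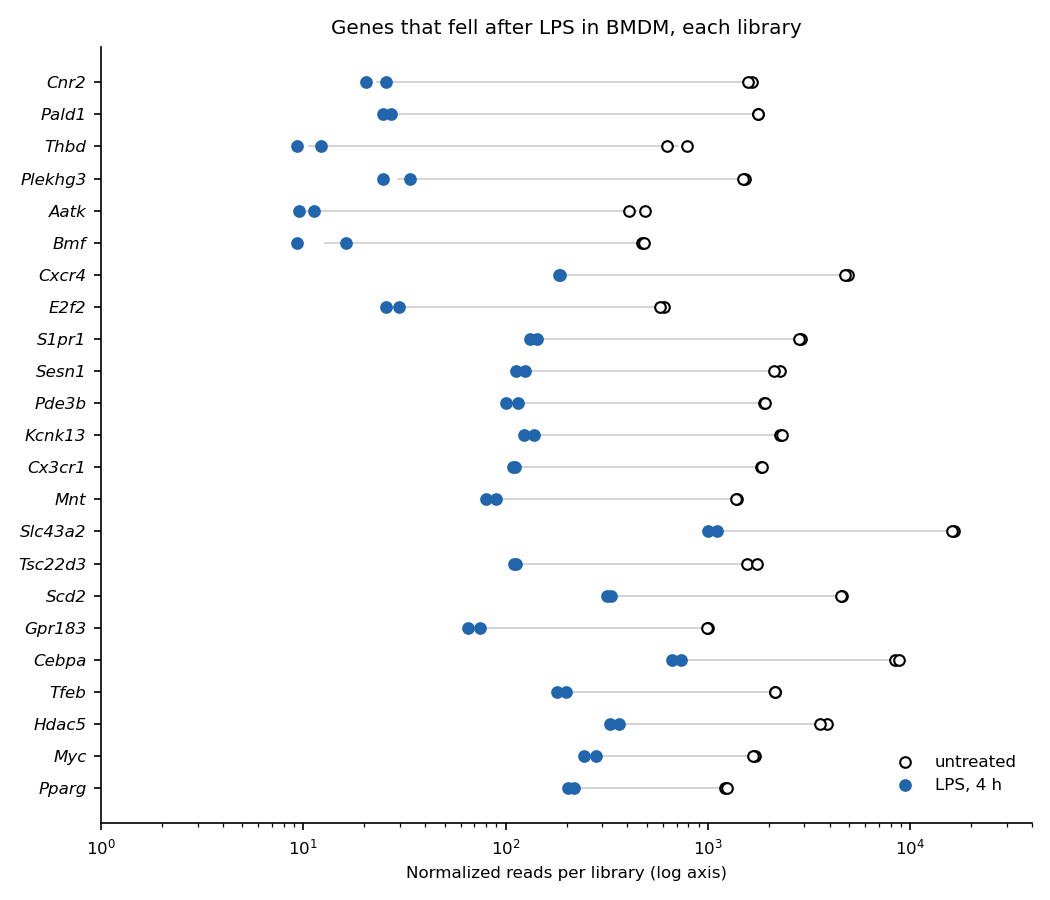
Normalized reads (log axis) of 23 genes that fell, in the 2 untreated (open circles) and 2 LPS-treated (filled circles) BMDM libraries, with 1 row per gene ordered by the size of the fall. In every row both filled circles lie to the left of both open circles, and replicates lie close together beside the distance between treatments except at levels near the floor of 1.

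Lineage factor genes moved in both directions, and several with known roles in macrophages fell. Cebpa, which encodes a factor needed for myeloid commitment, fell from 8397 and 8842 to 733 and 666 (-3.62 ± 0.23). Tfeb, a lysosome and autophagy regulator gene, fell from 2145 and 2146 to 199 and 179 (-3.50 ± 0.15). Spi1, the gene of the master factor PU.1, instead rose from 13113 and 12500 to 26601 and 24038 (0.98 ± 0.13), and Zeb1 (49.2 and 50.3 to 1091 and 1134) and Gfi1 (3.65 and 5.48 to 203 and 189.6) rose from low levels. Over the list, 24 of 53 genes rose and 17 fell (median 0.20). With equal totals 19 of them were called higher and 22 lower (median -0.30). Of identity and surface genes 12 of 34 genes rose and 7 fell (median 0.02). Csf1r, the receptor gene for macrophage colony-stimulating factor, fell from 61248 and 59633 to 42060 and 42196 (-0.52 ± 0.17), Adgre1, which encodes F4/80, was not called (0.45 ± 0.25), and Mertk, Marco and Timd4, which encode clearance receptors, rose by 1.78 ± 0.20, 2.86 ± 0.18 and 2.88 ± 0.25. Tmem119 had a change of -0.94 ± 0.31 and Pla2g15 fell from 3331 and 3233 to 1515 and 1533 (-1.11 ± 0.19). With equal totals 9 of them were called higher and 18 lower (median -0.59). The calls of Csf1r (without any 1 of the 4, -0.54 to -0.50) and Tmem119 (without any 1 of the 4, -0.97 to -0.90) were lost with 1 library left out. Other scalings ended the calls of Spi1 and Tmem119.

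Receptor genes moved in both directions. Of purinergic, adenosine, cannabinoid and other G protein-coupled receptor genes, 23 of 61 rose (37.7%) and 22 fell (36.1%), with a median change of -0.11, or 17 and 28 with equal totals (median -0.63). Beside Cnr2, the lysophosphatidic acid receptor gene Lpar5 fell from 155 and 129.8 to 5.14 and 6.77 (-4.37 ± 0.62) and Gpr34 from 30.1 and 28.3 to 5.14 and 16.3 (-1.55 ± 0.42). Adora2a, an adenosine receptor gene, rose from 41 and 32.9 to 3531 and 3594 and the niacin receptor gene Hcar2 from 36.5 and 39.3 to 4094 and 3751, while P2ry6 was not called (-0.24 ± 0.19). Gpr183, the oxysterol receptor gene, fell from 1002 and 993 to 75.1 and 65 (-3.82 ± 0.22), whereas Ch25h, which encodes the enzyme that makes its ligand precursor, rose from 30.1 and 34.7 to 15133 and 14345. In the signalling layer below these receptors, 18 of 61 genes rose and 22 fell (median -0.21), or 11 and 38 with equal totals (median -0.82). Over all tested genes 28.3% rose and 29.5% fell. Pde3b, a cyclic nucleotide phosphodiesterase gene, fell from 1885 and 1914 to 115 and 100.2 (-4.13 ± 0.24) and Pde4d from 179.6 and 190.1 to 33.9 and 24.4, but Pde4b rose from 479 and 451 to 9428 and 9796 (4.37 ± 0.16). Rgs2 fell by 1.19 ± 0.09, Rgs9 rose by 3.66 ± 0.34 and Rgs1 was not called (-0.21 ± 0.28). With 1 library left out, the call of Gpr34 (without LPS 1, -0.81) was lost.

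Scavenger and apoptotic cell receptor genes were called about as often as all genes on the deposited scale (28.3% higher and 29.5% lower): 12 of 43 genes rose and 12 fell (median -0.14), or 8 and 23 with equal totals (median -0.76). Cd300lb fell from 10324 and 10120 to 753 and 714 and Cd300lf, also a lipid-binding receptor gene, from 468 and 476 to 49.4 and 54.2. Msr1 (2.08 ± 0.15), the oxidized lipoprotein receptor gene Olr1 (3.58 ± 0.13) and Tyro3 (3.63 ± 0.64) rose, and Cd36 (0.10 ± 0.34) and the bridging protein gene Gas6 (-0.36 ± 0.28) were not called. Of Fc receptors, C-type lectins and inhibitory receptors, 22 of 59 genes rose and 18 fell (median 0.00). Clec4e, the mincle gene, rose from 2092 and 2036 to 65057 and 61416 and Fcgr2b, the inhibitory Fc receptor gene, from 1293 and 1317 to 23609 and 22151, while Lair1 fell by 1.31 ± 0.20 and Clec2i by 1.78 ± 0.21. Fcgr3 (0.50 ± 0.14) and the mannose receptor gene Mrc1 (0.56 ± 0.22) rose on the deposited scale, but with equal totals they stood at -0.11 and -0.05. With equal totals 12 of them were called higher and 25 lower (median -0.57). Without 1 library there was no call for Fcgr3 (without untreated 2 or LPS 1, 0.46 to 0.49) and Mrc1 (without any 1 of the 4, 0.47 to 0.66). A different scaling turned Fcgr3 (-0.39 with quantiles) and Mrc1 (-0.12 with quantiles).

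Among the lists with at least 15 tested members, mitosis and cytokinesis genes had the highest share of falls. Of mitosis and cytokinesis genes, 4 of 83 rose (4.82%) and 59 fell (71.1%), with a median change of -1.16. Depdc1b fell from 87.5 and 76.8 to 8.23 and 4.06, Cdca2 from 235 and 255 to 31.9 and 35.2, Plk1, the mitotic kinase gene, from 619.9 and 676 to 262 and 295 (-1.22 ± 0.26), and Ccnb1, the cyclin B1 gene, from 958 and 949 to 536 and 563 (-0.79 ± 0.24). The exceptions were Pttg1, the securin gene (443 and 437 to 2330 and 2207), the spindle factor gene Tpx2 (0.86 ± 0.16) and, named after their values were seen, Plk4 and Ckap2l (0.68 ± 0.24 and 0.74 ± 0.19). Mki67, the proliferation marker gene, was not called (3676 and 3456 untreated, 4305 and 4469 with LPS). Kinesin motor genes fell in 20 of 35 cases and rose in 5 (median -0.91). Under every scaling 56 mitosis genes and 18 kinesin genes were called lower. Leaving out 1 library ended the calls of Ccnb1 (without any 1 of the 4, -0.83 to -0.76) and Plk4 (without any 1 of the 4, 0.59 to 0.78). Another scaling ended the calls of Tpx2, Plk4 and Ckap2l.

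The genes of the G1/S step and of DNA replication fell with them: 9 of 68 genes rose (13.2%) and 39 fell (57.4%), with a median change of -0.69. E2f2 fell from 606 and 577 to 29.8 and 25.7 (-4.37 ± 0.30), Mcm2, a replicative helicase subunit gene, from 800.4 and 672 to 190.2 and 194 (-1.93 ± 0.27) and the polymerase subunit gene Pole2 from 193 and 204 to 26.7 and 31.2 (-2.74 ± 0.30). Cyclin genes moved in opposite directions: Ccnd1 fell from 4455 and 4302 to 1426 and 1369 (-1.65 ± 0.29), Ccnd2 rose from 105 and 91.4 to 12572 and 13153 (7.02 ± 0.12) and Ccne1 rose from 199.6 and 199 to 827 and 853 (2.07 ± 0.26). Rbl1, which encodes the pocket protein p107, rose by 2.63 ± 0.12. DNA repair genes fell in 44 of 74 cases (59.5%) and rose in 6 (median -0.75), among them Brca1 (393 and 387 to 75.1 and 88), Chek2 (337 and 347 to 43.2 and 51.5) and Rad51c (65.6 and 49.4 to 9.25 and 1.35). Atm rose from 497 and 447 to 1780 and 2016 and Rbbp8, a strand resection gene, by 2.14 ± 0.10. Histone genes fell in 17 of 50 cases and rose in 5 (median -1.01, or -0.99 with genes at the floor at their bound), or 27 and 2 with equal totals (median -1.56). Their mostly unpolyadenylated transcripts are known to be read unevenly.

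Among inhibitors of the cycle and p53 targets 11 of 36 genes rose and 14 fell (median -0.34), or 4 and 23 with equal totals (median -0.93). Cdkn1a, the p21 gene, rose from 5605 and 5716 to 66841 and 66571 (3.56 ± 0.15) and Mdm2 by 1.69 ± 0.17. Cdkn2c, the p18 gene, fell from 923 and 975 to 255 and 214 and Sesn1, the sestrin 1 gene, from 2283 and 2117 to 112 and 125 (-4.21 ± 0.14), where Sesn3 rose from 19.1 and 17.4 to 123 and 135. Members of the Myc network also moved in opposite directions. Myc fell from 1711 and 1663 to 281 and 245 (-2.68 ± 0.16) and its antagonist gene Mnt from 1392 and 1370 to 80.2 and 89.4 (-4.01 ± 0.16), while Mycl rose from 35.6 and 27.4 to 3358 and 3632 and the antagonist gene Mxd1 from 312 and 271 to 10525 and 9715, and over the network 7 of 15 genes rose and 5 fell (median 0.22). With equal totals 4 of them were called higher and 7 lower (median -0.21).

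Nucleotide and one-carbon genes fell in 22 of 39 cases (56.4%) and rose in 8 (median -0.50), or 28 and 5 with equal totals (median -1.12). Rrm2, a ribonucleotide reductase subunit gene, fell from 1024 and 958 to 233 and 245 and Adssl1, an adenylosuccinate synthase gene, from 8653 and 8441 to 1562 and 1647 (-2.41 ± 0.13). The phosphorylase genes Upp1 (10.0 and 8.23 to 701 and 604) and Pnp (4445 and 4618 to 72526 and 70326), which release bases from nucleosides, rose, while Tyms was not called (0.51 ± 0.31). Ribosome biogenesis genes fell in 29 of 74 cases and rose in 15 (median -0.16), or 65 and 2 with equal totals (median -0.77). Polr1b, an RNA polymerase I subunit gene, fell by 1.81 ± 0.13 and Rrp1b by 1.95 ± 0.22, Wdr43 and Noc4l rose by 1.63 ± 0.07 and 0.99 ± 0.13, and Ncl, the nucleolin gene, was not called (0.01 ± 0.08). Cytosolic ribosomal protein genes sat at the zero line of the deposited scale, with 5 of 83 rising, none falling and a median of 0.07, or 1 and 77 with equal totals (median -0.54). Mitochondrial ribosomal protein genes were at -0.01 (17 rose and 15 fell of 77), or 3 and 61 with equal totals (median -0.62).

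Sterol synthesis had the highest share of falls among the lipid lists. Of sterol synthesis and uptake genes, 5 of 35 rose (14.3%) and 20 fell (57.1%), with a median change of -0.61, or 0 and 31 with equal totals (median -1.22), and 19 were called lower under every scaling. Sqle, the squalene epoxidase gene, fell from 2935 and 2763 to 913 and 805 (-1.73 ± 0.24), Dhcr7 from 552 and 526 to 67.9 and 92.1 (-2.75 ± 0.24) and Mvd from 840.5 and 749 to 191 and 173 (-2.12 ± 0.17). The 5 risers were Npc2 (0.82 ± 0.25), which encodes a lysosomal cholesterol carrier, the sterol sensor gene Scap (0.63 ± 0.08) and, named after their values were seen, Srebf2, Insig2 and Ggps1 (0.31 ± 0.08, 0.48 ± 0.15 and 0.44 ± 0.14). None of the 5 was called higher with equal totals. The calls of Npc2 (without any 1 of the 4, 0.79 to 0.86), Srebf2 (without untreated 2 or LPS 1, 0.25 to 0.29), Insig2 (without any 1 of the 4, 0.45 to 0.52) and Ggps1 (without untreated 1 or untreated 2 or LPS 2, 0.36 to 0.50) were lost with 1 library left out. Under another scaling the sign changed for Npc2 (-0.30 with quantiles), Scap (-0.02 with equal totals without Rn45s), Srebf2 (-0.45 with quantiles), Insig2 (-0.16 with equal totals without Rn45s) and Ggps1 (-0.20 with equal totals without Rn45s).

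Fatty acid genes followed a mixed pattern. In synthesis, elongation and desaturation 8 of 33 genes rose and 14 fell (median -0.26), or 5 and 26 with equal totals (median -0.87). Scd2 fell from 4613 and 4570 to 318 and 332 (-3.82 ± 0.23) while Scd1, its close relative, was not called (773 and 806 untreated, 737 and 817 with LPS), and Fasn, the fatty acid synthase gene, fell from 2517 and 2039 to 731 and 721. Lpin1, a phosphatidate phosphatase gene, fell from 464 and 449.7 to 30.8 and 33.9 (-3.78 ± 0.18). The acyl-CoA synthetase gene Acsl1 rose from 1118 and 1145 to 19031 and 18843 (4.06 ± 0.12) and Dgat2, a triglyceride synthesis gene, by 1.51 ± 0.25. Oxidation, peroxisome and lipid droplet genes fell in 24 of 55 cases and rose in 8 (median -0.27, or -0.26 with floor genes at their bound), or 46 and 3 with equal totals (median -0.89). Abcd2, a peroxisomal transporter gene, fell from 434 and 410.4 to 39.1 and 31.2 and Acad12 from 259 and 224 to 49.4 and 63.7, whereas Acadl and Acaa1a rose by 1.09 ± 0.08 and 1.13 ± 0.09. Cpt1a, the carnitine palmitoyltransferase gene, rose by 0.22 ± 0.08 but stood at -0.39 with equal totals. Of LXR, RXR and PPAR factors and cholesterol efflux genes, 7 of 36 genes rose and 14 fell (median -0.08), or 4 and 24 with equal totals (median -0.69). Pparg fell from 1211 and 1242 to 219 and 205 (-2.53 ± 0.13) and Abcg1 from 5037 and 5398 to 3275 and 3468 (-0.63 ± 0.16), and Abca1 was not called (7533 and 7519 untreated, 7533 and 7831 with LPS). Sphingolipid and phospholipid enzyme genes fell in 18 of 51 cases and rose in 12 (median -0.12), or 39 and 9 with equal totals (median -0.73). Smpd3, a neutral sphingomyelinase gene, fell from 453 and 432 to 18.5 and 21.7 (-4.40 ± 0.41) and Plcb2 from 1005 and 992 to 205 and 233, while Cers6, a ceramide synthase gene, rose by 3.65 ± 0.16, Cept1 by 2.52 ± 0.16, Sphk1 by 2.43 ± 0.25 and Sgms2 by 1.15 ± 0.09. With 1 library left out, the calls of Cpt1a (without any 1 of the 4, 0.20 to 0.25) and Abcg1 (without untreated 2 or LPS 1, -0.59 to -0.58) were lost. Other scalings reversed Cpt1a (-0.53 with quantiles).

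Glycolysis, hexose uptake and hypoxia genes rose in 19 of 46 cases and fell in 9 (median 0.11). Hif1a rose from 3377 and 3425 to 14204 and 14372, the hexokinase gene Hk2 from 1741 and 1649 to 7470 and 7986 and Pfkfb3, which encodes an activator of phosphofructokinase, from 1116 and 1126 to 26760 and 26479 (4.57 ± 0.24). The transporter genes Slc2a1 and Slc2a6 rose by 1.22 ± 0.13 and 5.31 ± 0.10. Pdk2, a pyruvate dehydrogenase kinase gene, fell from 312 and 314 to 32.9 and 37.9 (-3.11 ± 0.23) and Egln3, an oxygen-sensing prolyl hydroxylase gene, from 123 and 88.7 to 20.6 and 17.6. With equal totals 11 of them were called higher and 23 lower (median -0.46). Tricarboxylic acid cycle genes were called about as often as all genes on the deposited scale (28.3% higher and 29.5% lower): 10 of 37 genes rose and 10 fell (median -0.14), or 1 and 30 with equal totals (median -0.75). Idh1, the cytosolic isocitrate dehydrogenase gene, fell from 6198 and 6195 to 2139 and 1993 (-1.59 ± 0.20) and Pck2 by 1.99 ± 0.15, Dld and Mpc1 rose by 0.91 ± 0.09 and 0.65 ± 0.11, and Sdha was not called (0.14 ± 0.07). Pentose phosphate and NADPH genes fell in 9 of 17 cases and rose in 2 (median -0.35), with G6pdx (-0.35 ± 0.11) and the sedoheptulose kinase gene Shpk (114 and 96 to 39.1 and 32.5) among the fallers and Nampt (3.19 ± 0.10) and Rpe (1.30 ± 0.09) as the risers. Respiratory chain and ATP synthase genes rose in 18 of 72 cases and fell in 4 (median 0.12). Cycs, the cytochrome c gene, rose by 1.66 ± 0.11 and Uqcrfs1 by 0.62 ± 0.13, Ndufs7 and Ndufs8 fell by 0.29 ± 0.09 and 0.49 ± 0.09, and Cox5a (0.29 ± 0.15) and Ndufa4 (0.19 ± 0.12) were not called. With equal totals 1 of them was called higher and 62 lower (median -0.49). Without 1 library there was no call for G6pdx (without untreated 1 or LPS 1 or LPS 2, -0.35 to -0.29) and Ndufs7 (without untreated 1 or untreated 2 or LPS 2, -0.32 to -0.24). A different scaling turned Uqcrfs1 (-0.03 with equal totals without Rn45s), and the call of Mpc1 was lost.

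Amino acid and stress genes fell in 20 of 52 cases and rose in 14 (median -0.17), or 35 and 9 with equal totals (median -0.79). Slc43a2, a large neutral amino acid transporter gene, fell from 16379 and 16147 to 1115 and 999.7 (-3.94 ± 0.22), and the stress factor gene Ddit3 (CHOP) and the stress kinase gene Eif2ak3 (PERK) fell by 1.09 ± 0.11 and 1.66 ± 0.15. Slc7a2, the arginine transporter gene, rose from 1402 and 1497 to 61949 and 68072 and Slc7a11, the cystine transporter gene, from 589.8 and 567 to 7222 and 6822, while Atf4 was not called (0.10 ± 0.12). Of the unfolded protein response 7 of 34 genes rose (20.6%) and 5 fell (14.7%), with a median of -0.02, or 2 and 25 with equal totals (median -0.63). Both shares on the deposited scale were below those of all tested genes (28.3% higher and 29.5% lower). Hspa5, Xbp1 and Syvn1 rose by 1.21 ± 0.24, 0.68 ± 0.10 and 0.83 ± 0.09, and Ern1 and Wfs1 fell by 0.78 ± 0.14 and 0.84 ± 0.19. Of NRF2 and glutathione genes, 11 of 39 rose (28.2%) and 8 fell (20.5%), with a median of 0.10. The share of rises was that of all tested genes and the share of falls was lower. Osgin1 fell from 723 and 639 to 55.5 and 56.9 (-3.57 ± 0.18), and of the glutathione synthesis genes Gclc fell from 1979 and 1769 to 385 and 394 and Gclm from 3727 and 3574 to 1409 and 1303. Nqo1 fell by 1.02 ± 0.25. Sod2, the mitochondrial superoxide dismutase gene, rose from 2879 and 2651 to 48516 and 47526, and Txnrd1 was not called (0.33 ± 0.20). With equal totals 8 of them were called higher and 21 lower (median -0.51). Another scaling turned the sign of Xbp1 (-0.10 with quantiles), and the calls of Hspa5, Syvn1, Wfs1 and Nqo1 were lost.

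Metal handling genes moved in both directions. Mt2 rose from 129 and 114 to 14487 and 12272 and Mt1 from 1784 and 1806 to 10129 and 8745 (metallothionein genes), Slc30a4, a zinc exporter gene, rose by 3.04 ± 0.17, and Slc30a5 and the copper pump gene Atp7a fell by 0.63 ± 0.08 and 0.56 ± 0.13, in a list where 13 of 26 genes rose and 3 fell (median 0.35). With equal totals 11 of them were called higher and 13 lower (median -0.26). Of iron and heme genes, 12 of 32 genes rose and 10 fell (median -0.06), or 10 and 14 with equal totals (median -0.57). Cp, the ceruloplasmin gene, rose from 62.9 and 63.1 to 4161 and 3993, while the iron reductase gene Steap3 fell by 1.94 ± 0.28, Hfe by 1.13 ± 0.16, the ferroportin gene Slc40a1 from 701 and 683 to 381 and 356 and the heme oxygenase gene Hmox1 from 14817 and 13188 to 8800 and 6841. Tfrc was not called (0.24 ± 0.21). Leaving out 1 library ended the call of Hmox1 (without untreated 1 or LPS 2, -0.77 to -0.67).

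FoxO, PI3K, AKT and mTOR pathway genes fell in 21 of 50 cases and rose in 14 (median -0.31), or 35 and 11 with equal totals (median -0.90). Foxo3 fell from 531 and 481 to 129 and 129 (-1.97 ± 0.13), Foxo1 from 451 and 483 to 356 and 356 (-0.39 ± 0.11) and the FoxO target gene Fbxo32, a ubiquitin ligase subunit gene, from 396 and 403 to 43.2 and 42 (-3.20 ± 0.24). Pik3ip1, a PI3K inhibitor gene, rose from 35.6 and 35.6 to 213 and 194 and Pik3r6, a PI3K gamma subunit gene, by 3.17 ± 0.17. Autophagy genes fell in 25 of 53 cases (47.2%) and rose in 13 (median -0.29), or 41 and 5 with equal totals (median -0.90). Ulk1, the initiating kinase gene, fell from 1055 and 1016 to 405 and 383 (-1.39 ± 0.13), Vps18 from 3214 and 3248 to 1028 and 944 and Map1lc3b from 4338 and 4516 to 2948 and 2797. The autophagy receptor gene Tax1bp1 rose by 1.92 ± 0.13, the Tfeb relative Mitf by 1.57 ± 0.19 and Sqstm1 was not called (0.51 ± 0.22). Of the lysosome list 13 of 75 genes rose and 17 fell (median -0.09), or 5 and 57 with equal totals (median -0.71). Sgsh, a sulfatase gene, fell from 859 and 848 to 86.4 and 81.3 (-3.33 ± 0.24) and the endolysosomal channel gene Tpcn1 from 2561 and 2732 to 495 and 466, Ctsc, the cathepsin C gene, rose from 5067 and 4887 to 49581 and 49202, the channel gene Mcoln2 rose by 2.28 ± 0.18, and Ctsd (-0.20 ± 0.27) and Lamp1 (0.16 ± 0.25) were not called. Genes of Tbc1d proteins, which inactivate Rab GTPases, fell in 15 of 29 cases and rose in 6 (median -0.61), or 20 and 3 with equal totals (median -1.22). Rab genes themselves rose in 23 of 50 and fell in 9 (median 0.25), or 12 and 19 with equal totals (median -0.36). The call of Foxo1 (without untreated 2 or LPS 1 or LPS 2, -0.39 to -0.34) was lost with 1 library left out. Under another scaling the call of Foxo1 was lost.

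**Figure D3:**
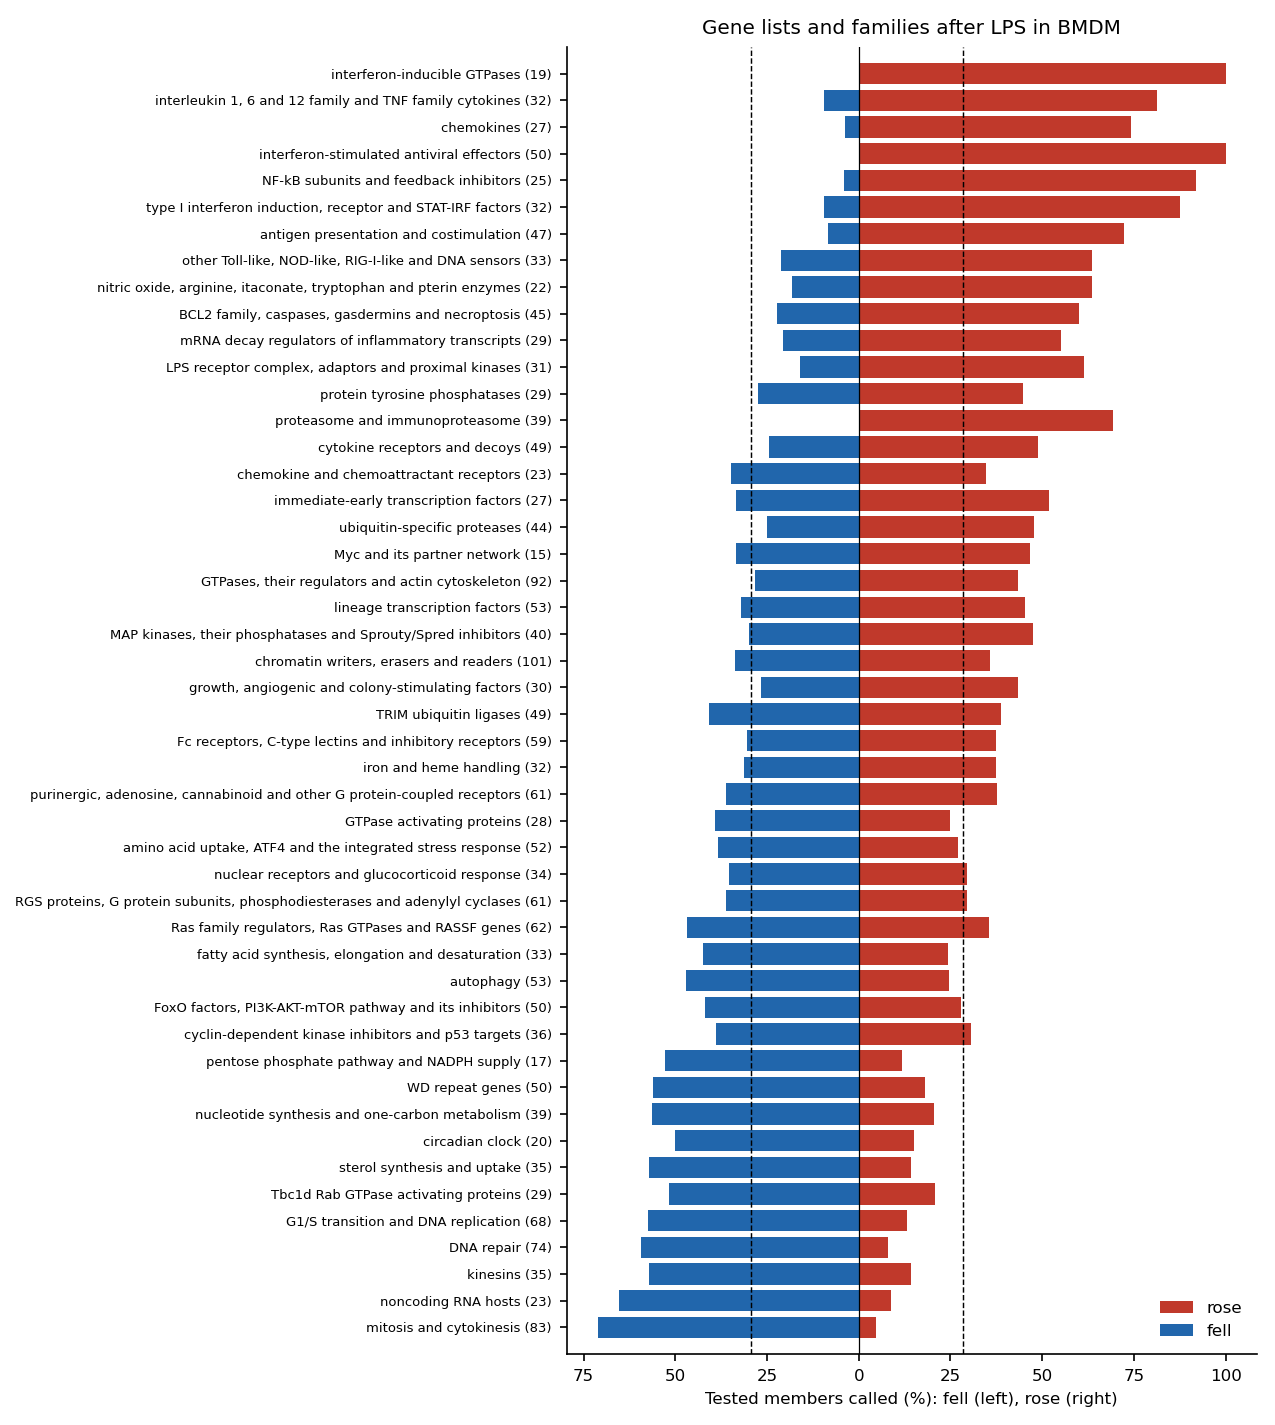
Share of tested members that rose (red, to the right) and fell (blue, to the left) after LPS in BMDM for the 48 gene lists and families with at least 15 tested members that had the highest shares of called members, in percent and ordered by the median change, with the number tested beside each name. Dashed lines give the shares over all tested genes, 28.3% and 29.5%, and the lists with the largest shares of falls are those of mitosis, noncoding RNA hosts, DNA repair, and G1/S and replication.

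Of nuclear receptors and glucocorticoid response genes, 10 of 34 genes rose and 12 fell (median -0.19), or 4 and 17 with equal totals (median -0.79). Over all tested genes 28.3% rose and 29.5% fell. The glucocorticoid-induced gene Tsc22d3 (GILZ) fell from 1553 and 1757 to 112 and 109.7 (-3.88 ± 0.15), although Nr3c1, the glucocorticoid receptor gene, rose from 2048 and 2067 to 9261 and 9523 (2.19 ± 0.11). Vdr, the vitamin D receptor gene, fell from 121 and 111 to 8.23 and 9.48 (-3.57 ± 0.23), while the aryl hydrocarbon receptor targets Tiparp and Cyp1b1 rose by 3.40 ± 0.19 and 2.82 ± 0.54. Circadian clock genes fell in 10 of 20 cases and rose in 3 (median -0.53), or 14 and 1 with equal totals (median -1.13). Per1 fell from 711 and 668 to 163 and 168 (-2.05 ± 0.11), Per3 from 112 and 96 to 26.7 and 17.6, Tef from 1150 and 1092 to 243 and 209 and Arntl, the BMAL1 gene, from 362 and 379 to 229 and 217 (-0.73 ± 0.15). Nfil3 rose from 362 and 398 to 2452 and 2129, Clock rose by 0.46 ± 0.16 (-0.15 with equal totals), and Nr1d1, the REV-ERB alpha gene, was not called (-0.48 ± 0.25). With 1 library left out, the call of Clock (without any 1 of the 4, 0.43 to 0.49) was lost. Other scalings reversed Clock (-0.18 with equal totals without Rn45s), and the call of Arntl was lost.

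Of chromatin regulators 36 of 101 genes rose (35.6%) and 34 fell (33.7%), with a median of 0.13. These shares were not far from those of all tested genes (28.3% higher and 29.5% lower). Single members moved strongly. Hdac5, a class II histone deacetylase gene, fell from 3863 and 3574 to 365 and 326 (-3.42 ± 0.17) and the Polycomb gene Cbx8 from 95.7 and 112 to 11.3 and 12.2 (-3.03 ± 0.39). The demethylase gene Kdm6b rose from 428 and 357 to 1393 and 1380 and Setdb2, a histone methyltransferase gene, from 201 and 215 to 2719 and 3002, and Ezh2 was not called (-0.40 ± 0.24). With equal totals 17 of them were called higher and 62 lower (median -0.48). Of the 326 C2H2 zinc finger genes named Zfp, 139 fell (42.6%) and 44 rose (13.5%), with a median of -0.44, or 245 and 20 with equal totals (median -1.03). Under every scaling 69 of the 326 were called lower, beside 3227 of all 13755 tested genes (23.5%). With quantile normalization their median was -0.23, against -0.20 over all tested genes. Noncoding RNA hosts fell in 15 of 23 cases (65.2%) and rose in 2 (median -1.04). Neat1, the paraspeckle RNA, fell from 35426 and 33830 to 8114 and 8624 (-2.05 ± 0.18) and Gas5, which hosts small nucleolar RNAs, from 1514 and 1417 to 507 and 593 (-1.42 ± 0.09). Ptprv, which the list holds although its symbol is that of a protein tyrosine phosphatase gene, fell from 83.9 and 74 to 18.5 and 12.2. The risers were Mir155hg, the host transcript of miR-155, from 5.47 and 10.1 to 1764 and 2029 (7.81 ± 0.29), and Ptgs2os2, from 13.7 and 11 to 648 and 622. Ptgs2os2 neighbours Ptgs2, and the strand used in counting is not given, so its reads may belong in part to transcripts of the other strand.

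Genes of the TGF-beta, Notch, Wnt and semaphorin pathways were called in both directions. On the deposited scale their shares lay near those of all tested genes (28.3% higher and 29.5% lower). In the TGF-beta pathway 17 of 50 genes rose and 14 fell (median 0.08). Tgfbr1, the type I receptor gene, fell from 9286 and 9791 to 2559 and 2617 (-1.88 ± 0.15), Smad3 from 294 and 350.0 to 55.5 and 59.6 (-2.46 ± 0.19), Smad7 from 862 and 889 to 279 and 312 (-1.57 ± 0.12) and the ligand gene Tgfb3 from 69.3 and 75.9 to 7.2 and 8.13, while Bmp1 rose from 2.73 and 3.66 to 166 and 163. With equal totals 10 of them were called higher and 23 lower (median -0.51). Of Notch, Wnt and Hippo genes 22 of 71 genes rose and 21 fell (median -0.01), or 19 and 33 with equal totals (median -0.58). Notch4 fell from 112 and 91.4 to 3.08 and 4.06 and the target genes Hes1 from 58.3 and 57.6 to 10.3 and 21.7 and Hey1 from 121 and 128 to 9.25 and 6.77. Notch1 rose from 1838 and 1682 to 6410 and 6014 and the ligand gene Dll1 from 7.29 and 6.4 to 372 and 341, and the Wnt receptor gene Fzd1 rose by 4.26 ± 0.24. Semaphorin, plexin, neuropilin and ephrin genes fell in 14 of 45 cases and rose in 13 (median -0.48), or 21 and 9 with equal totals (median -0.94). Nrp1, Plxnd1, Plxna2 and Plxna3 fell by 0.50 ± 0.13, 0.45 ± 0.09, 1.75 ± 0.37 and 2.31 ± 0.50, and Epha4 and Efna2 rose by 6.00 ± 0.52 and 3.68 ± 0.23. Without 1 library there was no call for Nrp1 (without untreated 1, -0.47).

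Adhesion and matrix genes rose more often than they fell on the deposited scale. Integrins and adhesion genes rose in 22 of 55 cases and fell in 6 (median 0.17). Icam1 rose from 2275 and 2381 to 97875 and 98297, Itga4 by 3.32 ± 0.17 and Itgb8, a subunit gene of a TGF-beta activating integrin, from 2.73 and 1.83 to 1068 and 1250, whereas Itga6 fell from 4986 and 4903 to 831 and 824 and Itgb5 from 17683 and 17312 to 5474 and 5260. The CD11b gene Itgam was not called (-0.21 ± 0.15). With equal totals 18 of them were called higher and 18 lower (median -0.41). Matrix and protease genes rose in 19 of 56 cases and fell in 9 (median 0.22): Mmp13 went from 384 and 441 to 98747 and 103637, the aggrecanase gene Adamts4 from 1 and 3.66 to 1296 and 1452 and the inhibitor gene Timp1 from 53.8 and 49.4 to 4800 and 3846, Mmp9 rose by 0.87 ± 0.18, and Adam8, a surface protease gene, fell from 47261 and 44960 to 10606 and 11138. Thbs1, a thrombospondin gene, fell from 10611 and 10231 to 1416 and 1508. With equal totals 15 of them were called higher and 15 lower (median -0.20). A different scaling ended the call of Mmp9.

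Small GTPase genes moved in both directions. Genes of cytoskeletal GTPases and actin regulators rose in 40 of 92 cases and fell in 26 (median 0.22). Of the Rnd GTPase genes, Rnd1 rose from 46.5 and 26.5 to 10590 and 11525 and Rnd3 from 649 and 685 to 6843 and 7041. The bundling protein gene Fscn1 rose from 68.4 and 69.5 to 2443 and 2461 and Rhob by 0.73 ± 0.15, while Rhov fell from 1118 and 1159 to 109 and 123 (-3.28 ± 0.21) and Dock8 was not called (-0.27 ± 0.22). With equal totals 23 of them were called higher and 47 lower (median -0.39). Ras regulators fell in 29 of 62 cases and rose in 22 (median -0.23), or 39 and 15 with equal totals (median -0.84). Rasgrp3 fell from 552 and 499.9 to 54.5 and 50.1 (-3.31 ± 0.27) where its paralog Rasgrp1 rose from 14.6 and 11 to 1268 and 1417. Rassf3 fell from 3970 and 4334 to 331 and 368 (-3.57 ± 0.22), and Rapgef2 and Rasa2 rose by 3.98 ± 0.14 and 0.80 ± 0.13. Of ion channel genes 21 of 65 genes rose and 20 fell (median -0.16), or 14 and 34 with equal totals (median -0.75). On the deposited scale this was near the shares of all tested genes (28.3% higher and 29.5% lower). Kcnk13, a background potassium channel gene, fell from 2269 and 2328 to 139 and 123 (-4.12 ± 0.17) and Kcnj2 from 1542 and 1511 to 333 and 295, while Kcna3 (3.20 ± 0.17) and Cacnb3 (4.64 ± 0.23) rose and Kcnn4 (0.49 ± 0.28) and Trpv2 (-0.06 ± 0.14) were not called. Another scaling turned the sign of Rhob (-0.13 with quantiles), and the call of Rasa2 was lost.

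Cell death genes rose more often than they fell: 27 of 45 genes rose and 10 fell (median 0.99), or 22 and 18 with equal totals (median 0.38). The survival gene Bcl2a1a rose from 79.3 and 92.3 to 3977 and 3797 and Bcl2a1b from 1547 and 1841 to 27691 and 26217, near-identical copies whose reads may be split between them. Casp4, the gene of caspase 11, the cytosolic LPS receptor, rose from 387 and 442 to 7649 and 7634 and Casp12 from 3.65 and 1 to 201 and 221, whereas Dfna5, the gasdermin E gene, fell from 482 and 491 to 84.3 and 82.6 (-2.53 ± 0.29). Heat shock genes rose in 17 of 48 cases and fell in 7 (median 0.10). Hspa1a rose from 259.8 and 419 to 969 and 1024, Dnaja2 by 1.87 ± 0.12 and Hsp90aa1 by 0.65 ± 0.11, and Hsph1 and Bag2 fell by 1.32 ± 0.17 and 1.80 ± 0.22. With equal totals 7 of them were called higher and 25 lower (median -0.47). Under another scaling the sign changed for Hsp90aa1 (-0.24 with quantiles).

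**Figure D4:**
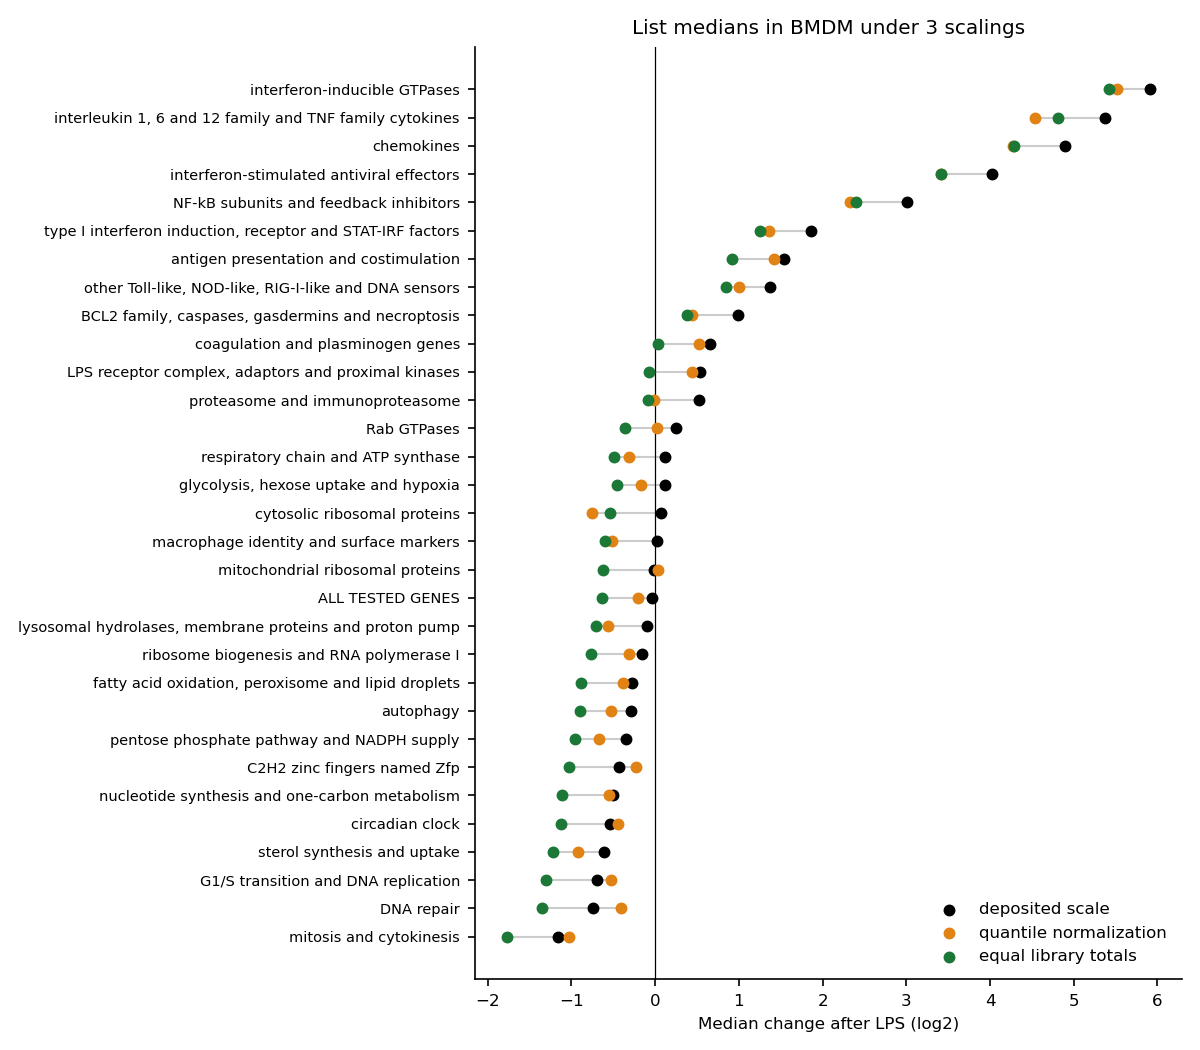
Median change after LPS (log2) of 30 gene lists and of all tested genes under the deposited scale (black), quantile normalization (orange) and equal library totals (green). Lists of interferon effectors, cytokines, chemokines and NF-kB genes stay to the right of zero and those of mitosis, replication, DNA repair and sterol synthesis to its left under all 3, while proteasome, respiratory chain, glycolysis and cytosolic ribosomal protein genes cross it.

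The same dose and time were applied to resident marrow macrophages, and the difference of the responses was tested as an interaction in the same model. Their libraries are a mixture with markers of other marrow cells (neutrophil markers at 0.720% to 1.51% of values), so a difference may concern the composition of the fraction as well as the macrophages, which cannot be told apart. In that fraction 1013 genes rose (7.36%) and 766 fell (5.57%). The difference was called for 5752 genes (41.8%), 3135 with the higher change in BMDM (22.8%) and 2617 with the lower (19%). Of the 2187 genes that rose at least 2-fold in BMDM, 749 also rose in the resident fraction and 12 fell, with a median change of 2.10 in BMDM and 0.34 in the resident fraction. Of the 2122 genes that fell at least 2-fold in BMDM, 318 fell and 13 rose there, with medians of -1.61 and -0.23. The difference was called in the direction of the BMDM change for 1971 of the 2187 rises and 1707 of the 2122 falls. This count takes genes chosen for their change in BMDM and is a description. Named here after their resident values were seen, Fbxo32 and Hfe fell in both with no difference called, at -3.18 ± 0.20 and -0.99 ± 0.13 in the resident fraction. Cebpa (-1.20 ± 0.19), Cx3cr1 (-1.15 ± 0.18) and Tsc22d3 (-0.47 ± 0.12) fell there by less. Myc (0.46 ± 0.13), Nr4a1 (0.51 ± 0.09), Gpr183 (0.85 ± 0.18), Kcnj2 (0.61 ± 0.15) and Thbs1 (1.00 ± 0.23) fell in BMDM and rose in the resident fraction.

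**Figure D5:**
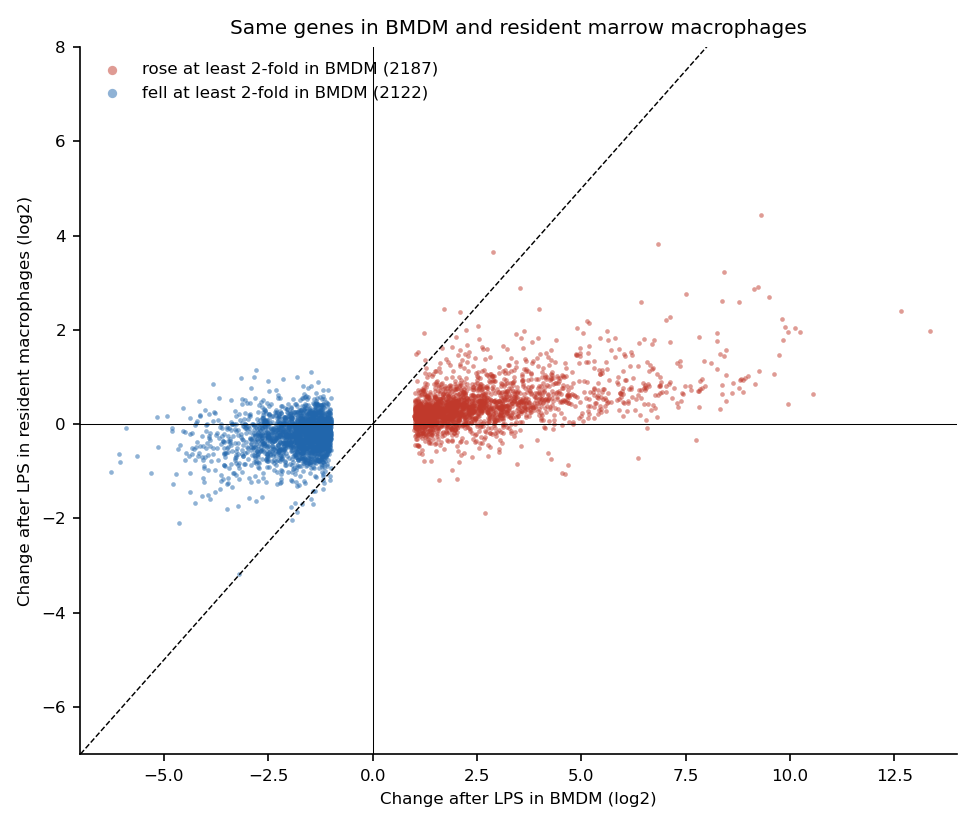
Change after LPS in BMDM (horizontal, log2) and in resident marrow macrophages (vertical, log2) for the genes called and changed at least 2-fold in BMDM, 2187 rises in red and 2122 falls in blue; the dashed line marks equal change. Most points lie closer to zero on the vertical axis, with medians of 0.34 and -0.23 there against 2.10 and -1.61 on the horizontal axis.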

How the data were processed

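RNA was measured by sequencing in 10 mouse libraries, and reads were aligned with HISAT 0.1.7 to mm10, per the submitters' processing notes; the sources used here name no counting or normalization tool. The deposited table holds normalized signal: values are whole multiples (within 0.02, for values up to 1000 reads) of 1 step per library of 0.892 to 1.35, so the authors appear to have divided read counts by 1 factor per library, and no value is below 1. Multiples recovered 27.1 to 37.7 M reads per library, and intervals from these cover counting error only.

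Values were taken as log2(value + 1). Genes reaching 10 in 2 or more libraries, 13755 in all, were tested with limma 3.58.1 in R 4.3.3, with 4 groups, all 10 libraries, a variance trend and 6 residual degrees of freedom, and Benjamini-Hochberg adjustment at 0.05. The difference of responses is an interaction contrast in the same fit. The script was tested on simulated data. Replicates were not paired. Groups come from the source labels.

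Named genes are set anchors of 74 lists, the 12 largest rises and 12 largest falls with a mean of at least 50 and no overlap between BMDM groups, leaving out unnamed predicted genes, up to 2 rises and 2 falls for each list, and 8 genes for the difference. Some of the genes that this rule takes are not reported here. In addition 25 families were taken by symbol. Members, lists and rules were chosen with earlier results of these data known. Alternatives were other pseudocounts, filters, scalings, moderation, voom on recovered reads and leaving out libraries. Planned count tests on the recovered reads were not run, and voom was used on them instead. Figures were drawn with matplotlib 3.10.9.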

Additional observations from a re-analysis of the deposited data

Results flagged for a closer look

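The changes after LPS in BMDM and in the resident marrow fraction differed for 5752 genes by a test of the difference itself, the interaction in limma with Benjamini-Hochberg adjustment over all 13755 genes. The 8 genes described next had the 4 most negative differences among genes that fell in BMDM and the 4 most positive among genes that rose there. They were taken from genes with a name that were called for the difference and had a mean of at least 50 in the highest group. Larger differences of genes not called in BMDM are thus not among them by rule. Differences are BMDM minus resident on the log2(value + 1) scale.

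Thbd differed by -5.84 ± 0.32 and Bmf by -5.32 ± 0.41. Neither was called in the resident fraction (-0.08 ± 0.20 and 0.14 ± 0.26), where Thbd had means of 417 and 387 and Bmf of 296 and 319 without and with LPS. Cnr2 differed by -5.45 ± 0.42, with resident means of 292 and 179 and a change there of -0.63 ± 0.27 that was not called. Pald1 differed by -5.24 ± 0.22 and fell in both, with resident means of 544 and 313 (-0.80 ± 0.14).

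Among rises, Nos2 differed by 11.38 ± 0.74 and Il6 by 10.26 ± 0.78. Both rose in the resident fraction too, Nos2 from a mean of 307 to 1082 (1.97 ± 0.47) and Il6 from 481 to 2431 (2.40 ± 0.49). Cxcl11 differed by 9.90 ± 0.46 and Cxcl9 by 9.53 ± 0.33, and in the resident fraction neither was called (0.63 ± 0.29 and 0.44 ± 0.21). Their untreated resident means were 3209 and 2390, against 3.65 and 5.02 in untreated BMDM. All 4 thus had higher levels in untreated resident libraries than in untreated BMDM. All 8 differences stayed called in the same direction under each alternative setting that gave a value. The resident libraries also hold markers of other marrow cells, and their part in these differences was not tested.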

How the results depend on the processing

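Scaling to equal totals moved the counts more than any other choice tried. With equal library totals 2170 genes were called higher and 7833 lower, and at a size of at least 2-fold 1456 and 4432. With Rn45s left out of the totals these were 2118, 8038, 1430 and 4622. The other alternatives kept each of the 5 counts within 1.5 times its value: pseudocounts of 0.1 and 10, no filter and a filter at 100, recomputed factors, quantile normalization, no variance trend, robust moderation, the BMDM libraries alone, voom on recovered reads and leaving out libraries. Leaving out 1 of the 10 libraries at a time gave 3273 to 4154 genes called higher, 3032 to 4384 genes called lower, 2033 to 2228 genes called at least 2-fold higher, 1857 to 2164 genes called at least 2-fold lower and 4276 to 5954 genes called for the difference from the resident fraction. Where a BMDM library was left out, the lone library of its group was taken to vary like the other groups.

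Of the 384 named genes that were called, 328 kept direction and call under every alternative, 56 lost the call under at least 1, and 15 changed sign under a scaling. Leaving out 1 library ended 32 of the calls, and the other settings 17, which include voom on the recovered whole reads, an alternative chosen after seeing the data. Under at least 1 scaling 34 lost the call with the sign kept, and 344 of the 384 kept both direction and call under all scalings. Of the 39 named genes not called, 24 changed sign under at least 1 alternative, and 28 were called under at least 1 with the sign kept. With the BMDM libraries alone 26 of them were called, so not called does not mean unchanged. With equal library totals the change turned for Abca1 (-0.58), Adgre1 (-0.16), Atf4 (-0.51), Cd36 (-0.51), Clock (-0.15), Cox5a (-0.32), Cpt1a (-0.39), Dusp1 (-0.0072), Fcgr3 (-0.11), Ggps1 (-0.17), H2-Aa (-0.19), Hba-a1 (-0.50), Igf1 (-0.59), Insig2 (-0.13), Itga2b (-0.34), Kcnn4 (-0.12), Lamp1 (-0.45), Mki67 (-0.31), Mrc1 (-0.050), Ncl (-0.61), Ndufa4 (-0.42), Psmb5 (-0.52), Sdha (-0.47), Sqstm1 (-0.11), Srebf2 (-0.30), Tfrc (-0.37), Txnrd1 (-0.28) and Tyms (-0.095). With equal totals that left out Rn45s it turned for Abca1 (-0.62), Adgre1 (-0.20), Atf4 (-0.54), Blnk (-0.019), Cd36 (-0.54), Clock (-0.18), Cox5a (-0.35), Cpt1a (-0.42), Dusp1 (-0.041), Epx (-0.016), Fcgr3 (-0.14), Ggps1 (-0.20), H2-Aa (-0.22), Hba-a1 (-0.53), Igf1 (-0.63), Insig2 (-0.16), Itga2b (-0.37), Kcnn4 (-0.15), Lamp1 (-0.49), Mki67 (-0.35), Mrc1 (-0.084), Ncl (-0.64), Ndufa4 (-0.46), Psmb5 (-0.56), Scap (-0.018), Sdha (-0.50), Sqstm1 (-0.14), Srebf2 (-0.34), Tfrc (-0.40), Txnrd1 (-0.32), Tyms (-0.13) and Uqcrfs1 (-0.027). With quantile normalization it turned for Abca1 (-0.80), Adgre1 (-0.55), Atf4 (-0.69), Blnk (-0.016), Cd36 (-0.87), Cox5a (-0.26), Cpt1a (-0.53), Dusp1 (-0.24), Fcgr3 (-0.39), H2-Aa (-0.42), Hsp90aa1 (-0.24), Igf1 (-0.86), Kcnn4 (-0.41), Lamp1 (-0.79), Mki67 (-0.38), Mrc1 (-0.12), Ncl (-0.87), Ndufa4 (-0.39), Npc2 (-0.30), Psmb5 (-0.58), Rhob (-0.13), Sdha (-0.66), Siglech (0.058), Sqstm1 (-0.31), Srebf2 (-0.45), Txnrd1 (-0.53) and Xbp1 (-0.099). Leaving out a BMDM library turned the sign of Cd3e (-0.25 to 1.09), Epx (-0.43 to 1.23), Hba-a1 (-0.067 to 0.23), Igf1 (-0.044 to 0.078), Ncl (-0.0086 to 0.019) and Scd1 (-0.098 to 0.049), none of which was called, given here with the range over the libraries left out. The cause of these changes was not tested. The planned count tests, edgeR and DESeq2 on the recovered reads, were not run. No paired analysis was possible because the labels give the replicates no numbers and the numbers used here follow the order of the samples. With 27.1 to 37.7 M reads a library, depth limits the genes near the floor: a gene at the floor of 1 held at most 1 read in that library, and 3 reads corresponded to 2.73 to 4.06 normalized reads in the BMDM libraries.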

Other observations

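The signal gained and lost by called genes was spread unevenly. These amounts hold for the deposited scale only. On it the untreated libraries summed to 24.7 and 26 M normalized reads and the LPS-treated libraries to 38.8 and 38.6 M. With equal totals gains and losses over all genes balance by construction. On the deposited scale genes that rose gained 16.3 M normalized reads, of which the 10 genes with the largest gains, named after their values were seen, held 14%. These were the interferon-induced genes Rsad2, Cmpk2, Ifit1, Ifit2 and Ifit3, the chemokine gene Cxcl10, the itaconate enzyme gene Irg1, the interleukin 1 genes Il1a and Il1b, and Tnfaip2. Tnfaip2, a TNF-induced gene, had the highest level among these before LPS, at a mean of 7642 normalized reads, and reached 138584 (4.18 ± 0.17). Genes that fell lost 2.45 M normalized reads, of which the 10 with the largest losses held 8.69%. Adam8 and the endocytic receptor gene Lrp1 headed these, followed by Neat1. Lrp1 went from a mean of 39967 to 12102 (-1.72 ± 0.18). Ucp2, a mitochondrial carrier gene, fell by 1.16 ± 0.11, the matrix protein gene Tgfbi by 1.44 ± 0.28 and Slc37a2, a sugar phosphate transporter gene, by 3.14 ± 0.12. The cytoskeletal genes Myo1f and Cotl1 fell by 1.82 ± 0.13 and 1.30 ± 0.28, Ywhah, a 14-3-3 protein gene, by 1.25 ± 0.10, and Csf1r completed the 10. Leaving out 1 library ended the call of Csf1r (without any 1 of the 4, -0.54 to -0.50).

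Several genes used as markers of other marrow cells changed in BMDM. Of 11 osteoclast markers 3 rose and 3 fell, or 2 and 5 with equal totals (median -1.02). Over all tested genes 28.3% rose and 29.5% fell on the deposited scale. Acp5, the gene of tartrate-resistant acid phosphatase, rose from 576 and 666 to 5327 and 5437 and Car2, the carbonic anhydrase 2 gene, from 108 and 163 to 1670 and 1559. Nfatc1, the gene of the master factor of osteoclasts, fell from 1363 and 1318 to 576 and 608 and Ctsk, the cathepsin K gene, from 1679 and 1646 to 1176 and 1203. The call of Ctsk (without untreated 1 or untreated 2 or LPS 1, -0.50 to -0.47) was lost with 1 library left out.

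Of 13 T and NK cell markers 5 rose and 2 fell, or 3 and 3 with equal totals (median 0.05), and Cd3e was at or near the floor (1 and 1.83 untreated, 1 and 4.06 with LPS). The kinase gene Lck rose from 25.5 and 23.8 to 577 and 605 and Cd247, the CD3 zeta gene, from 31.9 and 28.3 to 206 and 191, while the NK receptor gene Klrb1c fell from 50.1 and 52.1 to 7.2 and 14.9. In the dendritic cell list Xcr1, a chemokine receptor gene, rose from 22.8 and 17.4 to 368 and 356 and Irf4 from 62.9 and 60.3 to 421 and 485. Of 14 B lineage markers 2 rose and 2 fell, or 0 and 4 with equal totals (median -0.30). The adaptor gene Blnk rose by 0.63 ± 0.11 and Cd79b fell by 1.12 ± 0.32, and Vpreb1 fell at the floor, from 5.47 and 4.57 to 2.06 and 1. With 1 library left out, the calls of Cd79b (without untreated 1 or LPS 2, -1.02 to -0.88) and Vpreb1 (without untreated 1 or untreated 2 or LPS 2, -1.39 to -0.97) were lost. Other scalings reversed Blnk (-0.02 with equal totals without Rn45s), and the call of Cd79b was lost.

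Of 20 stromal and endothelial markers 5 rose and 1 fell, or 4 and 2 with equal totals (median -0.25). Pdgfrb, a receptor gene for platelet-derived growth factor, rose from 10.9 and 14.6 to 359.9 and 335 and Cdh5, the VE-cadherin gene, from 30.1 and 20.1 to 136 and 179, and Runx2 fell from 400.2 and 367 to 126 and 158. Col1a1, a collagen gene, was not called and stayed at or under 6.4 in all 4 libraries. Among neutrophil markers Csf3r, the G-CSF receptor gene, rose from 693 and 725 to 4365 and 4171 and S100a8 from 109 and 165 to 266 and 219, while Elane, the neutrophil elastase gene, fell from 6.38 and 9.14 to 1.03 and 1. The mast cell and eosinophil markers Cpa3 and Prg2 rose by 1.00 ± 0.30 and 1.35 ± 0.31, and Epx was not called (0.40 ± 0.53). In the erythroid list the globin gene Hba-a1 was not called (19.1 and 23.8 untreated, 23.6 and 21.7 with LPS). In the megakaryocyte list Treml1 fell from 99.4 and 116 to 35 and 52.8, and Pf4 (-0.34 ± 0.48) and Itga2b (0.27 ± 0.49) were not called. Without 1 library there was no call for S100a8 (without untreated 1 or LPS 1, 0.55 to 0.71), Cpa3 (without untreated 1 or LPS 2, 0.68 to 0.81) and Treml1 (without any 1 of the 4, -1.59 to -1.01). A different scaling ended the calls of S100a8, Cpa3, Prg2 and Treml1.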
